A study of Mus musculus with 7 samples.

Results

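The cluster of miR-143 and miR-145 was examined in extracellular vesicles, small membrane particles shed by cells, from mouse adipose tissue. Its members are the 4 mature arms mmu-miR-143-3p, mmu-miR-143-5p, mmu-miR-145a-5p and mmu-miR-145a-3p (mmu stands for mouse and is left out from here on), taken by name from the 1084 entries of the combined count table, and all 4 were among the 385 entries that passed the filter on low counts. The libraries came from male C57BL/6J mice, 4 for chow feeding (Chow 1 to Chow 4) and 3 for high-fat feeding (HFD 1 to HFD 3), for 12 weeks in both cases. Strain, sex, tissue and the Trizol extraction were the same for both diets. No label names the fat depot or says whether a library stands for 1 animal or for pooled mice, so the spread that p-values rest on is that of libraries and may be technical.

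The hairpins of miR-143 and miR-145a are cut from a shared primary transcript, and each hairpin releases a 5p and a 3p arm, of which usually one is loaded into Argonaute as the guide while the other is degraded. Serum response factor and myocardin switch the cluster on in smooth muscle, and it is abundant in vascular smooth muscle cells and pericytes, where in mice it maintains the contractile state. miR-143 is also known for promoting fat cell differentiation in human preadipocytes and for impairing insulin signalling when it is raised in the liver of obese mice. In GENCODE M21 (GRCm38) the miR-143 hairpin (Mir143) lies on the minus strand of chromosome 18 at 61649196 to 61649258 and that of miR-145a (Mir145a) at 61647825 to 61647894, with 1301 bases between them. Neither lies within another annotated gene, and the noncoding gene Carmn, on the same strand, ends 366 bases upstream of Mir143.

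Total counts ran from 48840 in Chow 3 and 180694 in Chow 2 to 5941955 in HFD 3, and the other 4 libraries held between 1825488 and 2294878. Chow 2 and Chow 3 were also the libraries with no value for the same 485 entries of the separate Chow table, none of them an arm of this cluster. The limit set by a 0, taken as 3 counts, was 61.4 CPM (counts scaled to a common total) in Chow 3 and 16.6 CPM in Chow 2. Results are therefore given with and without these 2 libraries where the difference bears on them.

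Before the values, the sequences of 2 miRNAs used as yardsticks for the cluster are shown, with the seed (bases 2 to 8, which pair with targets) in capitals, from RefSeq (GRCm38.p6). miR-126a-3p is characteristic of the endothelium that vascular smooth muscle surrounds, and miR-199a-3p of fibroblasts and other mesenchymal cells. The first lies on chromosome 2 at 26591402 to 26591423 (plus strand). The second is made from Mir199a-2 on chromosome 1 at 162217883 to 162217904 (plus strand) and from Mir199a-1 on chromosome 9 at 21496498 to 21496519 (minus strand), and miR-199b-3p has the same sequence, so its entry may hold reads of all 3 genes. Their seeds differ.
miR-126a-3p: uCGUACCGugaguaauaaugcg
miR-199a-3p: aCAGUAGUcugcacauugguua

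The arms had the same order by count in all 7 libraries, with miR-143-3p first, then miR-145a-3p, then miR-145a-5p, and miR-143-5p last. Counts of different miRNAs also depend on how well each one is ligated to adapters, so this order is a description of the libraries. miR-143-3p, the guide arm of its hairpin, ranked 14th, 9th, 7th and 11th among all miRNAs in Chow 1 to Chow 4, and 46th, 38th and 26th in HFD 1 to HFD 3. Within the cluster its share was 91.3% ± 5.46 over the 4 Chow libraries and 71.7% ± 8.78 over the 3 HFD libraries (mean ± SD). miR-145a-3p, usually regarded as the passenger arm, exceeded miR-145a-5p, the arm usually regarded as the guide, in every library. The arm names are those of the deposited table and were not checked against miRBase, so each value and ratio of miR-145a belongs to the entry of that name. In normalised level these neighbours in the order overlapped in Chow, at 479 to 1752 against 196 to 488 CPM, but not in HFD, at 597 to 908 against 157 to 163 CPM.

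**Figure D1:**
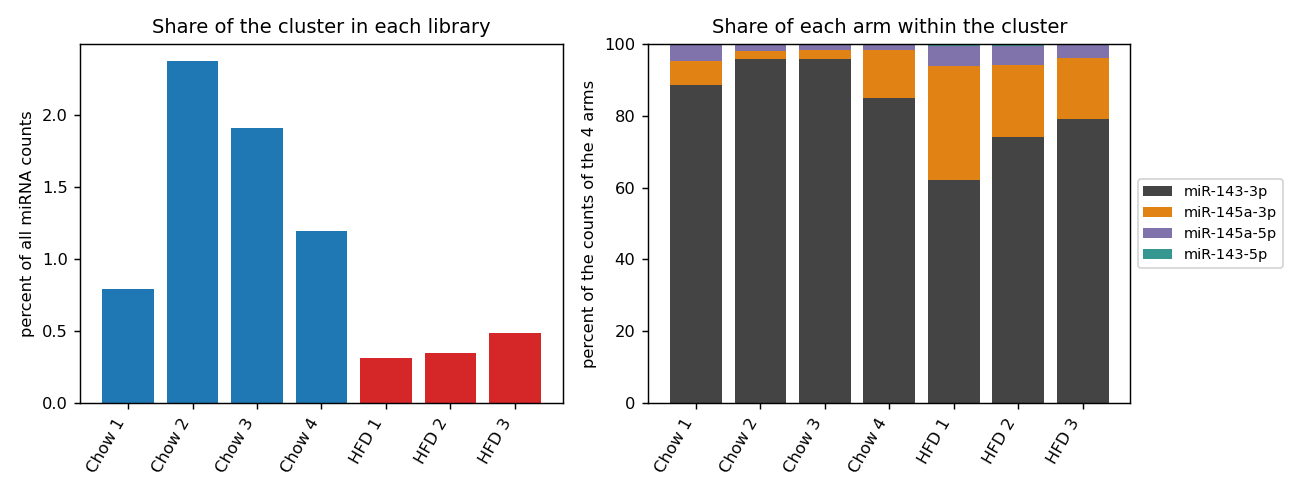
The left panel plots the 4 arms together as percent of all miRNA counts of each library, and the right panel the percent of that sum held by each arm. The 4 Chow bars stand between 0.791% and 2.37% and the 3 HFD bars between 0.311% and 0.489%, and miR-145a-3p took up to 31.7% of it, in HFD 1.

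miR-143-3p was lower in the HFD libraries than in every Chow library. Its normalised CPM, scaled by trimmed mean of M-values (TMM), were 9871, 19296, 19738 and 11118 in Chow 1 to Chow 4 and 1776, 2204 and 3554 in HFD 1 to HFD 3. The diets did not overlap, and within Chow the shallow libraries Chow 2 and Chow 3 stood highest. It averaged 15006 ± 5237 over the 4 Chow libraries and 2511 ± 928 over the 3 HFD libraries (mean ± SD), a log2 change of -2.58 (SE 0.43, adjusted p = 0.0224 in edgeR's quasi-likelihood test with Benjamini-Hochberg adjustment). This was the smallest p of the 385 tested miRNAs, and the fold change ranked 7th from the lowest. In that test 3 of 385 miRNAs (0.779%) were lower in HFD and 8 (2.08%) higher. The 8 include miR-142a-3p and miR-142b, entries with the same values, so these are shares of entries. As a share of all counts, miR-143-3p held between 0.702% (exact binomial 95% interval 0.690% to 0.713%, Chow 1) and 2.27% (2.20% to 2.34%, Chow 2) in Chow. Its shares in HFD were between 0.193% (0.187% to 0.199%, HFD 1) and 0.387% (0.382% to 0.392%, HFD 3). Without Chow 2 and Chow 3 together the log2 fold change was -2.07 (edgeR, adjusted p = 0.0628), and without HFD 2 it was -2.43 (edgeR, adjusted p = 0.160), so the call did not hold in either case. Without Chow 4, and again without HFD 3, miR-143-3p was the 1 miRNA past the threshold, with edgeR adjusted p-values of 0.0331 and 0.0454. In bulk vesicle RNA, fewer vesicles from one kind of cell and less of a miRNA per vesicle cannot be told apart.

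miR-145a-5p, which in mouse smooth muscle represses Klf4 and Klf5, regulators of the proliferative state, did not pass the test. It stood at 488, 371, 330 and 196 normalised CPM in Chow 1 to Chow 4 and at 163, 160 and 157 in HFD 1 to HFD 3. The diets did not overlap, but Chow 4 lay close to the HFD libraries, and its share of the counts, 0.0179%, was within the HFD range of 0.0171% to 0.0188%. It averaged 346 ± 121 over the 4 Chow libraries and 160 ± 2.88 over the 3 HFD libraries (mean ± SD). The log2 change was -1.12 (SE 0.45, edgeR, adjusted p = 0.163, unadjusted p = 0.0287). Across all tested miRNAs, 36 of 385 (9.35%) were lower in HFD with no overlap between the diets, and 44 (11.4%) were lower at an unadjusted p under 0.05. miR-145a-5p rested on 15 counts in Chow 3 and 79 in Chow 2, and its log2 fold change was -1.10 without them (edgeR, adjusted p = 0.194).

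miR-145a-3p showed no difference that passed the test. Its normalised CPM were 743, 479, 507 and 1752 in Chow 1 to Chow 4 and 908, 597 and 765 in HFD 1 to HFD 3. All HFD libraries fell within the Chow range, and Chow 4 was more than 2 times as high as any other Chow library. The log2 change was -0.22 (SE 0.50, edgeR, adjusted p = 0.828). Its value was -0.73 without Chow 2 and Chow 3 (edgeR, adjusted p = 0.372) and 0.37 without Chow 4, and scaling by library size alone gave 0.07, so no direction can be given.

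miR-143-5p, the passenger arm of the miR-143 hairpin, was scarce. It was counted 53, 4, 0 and 80 times in the Chow libraries, in order, and 34, 33 and 102 in HFD 1 to HFD 3. Its normalised CPM were 35.2, 18.8 and 38.2 in Chow 1, Chow 2 and Chow 4 and between 15.4 and 15.9 in HFD. Chow 1, Chow 2 and Chow 4 lay above the HFD libraries, although the 4 counts of Chow 2 give a share between 0.000603% and 0.00567% (exact binomial 95% interval), which includes the HFD shares. The 0 in Chow 3 leaves room for up to 66.1 normalised CPM, above every measured value of this arm, so whether the diets overlap was not detectable at this depth. The log2 change was -0.90 (SE 0.54, edgeR, adjusted p = 0.336). It was -1.23 when Chow 2 and Chow 3 were left out (edgeR, adjusted p = 0.116).

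**Figure D2:**
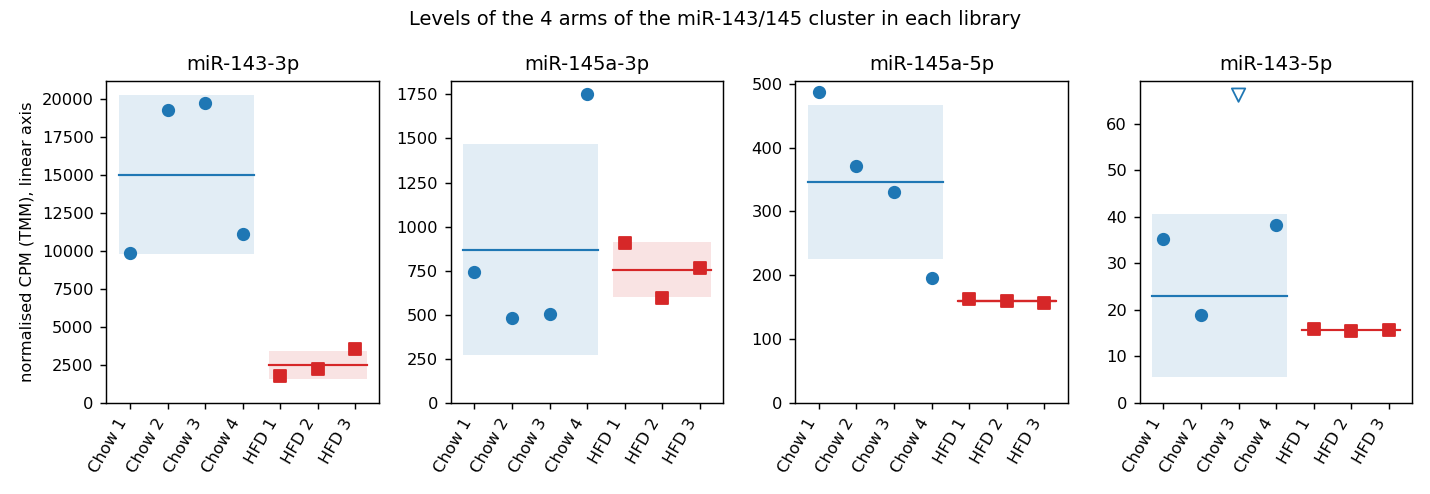
Normalised CPM (linear axis) of each arm in each library, with circles for Chow and squares for HFD; lines are group means and shaded bands 1 SD, and the open triangle is the level that 3 counts would give in Chow 3, where miR-143-5p had 0 counts. miR-143-3p and miR-145a-5p separate the diets, and the single high value of miR-145a-3p is Chow 4.

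**Figure D3:**
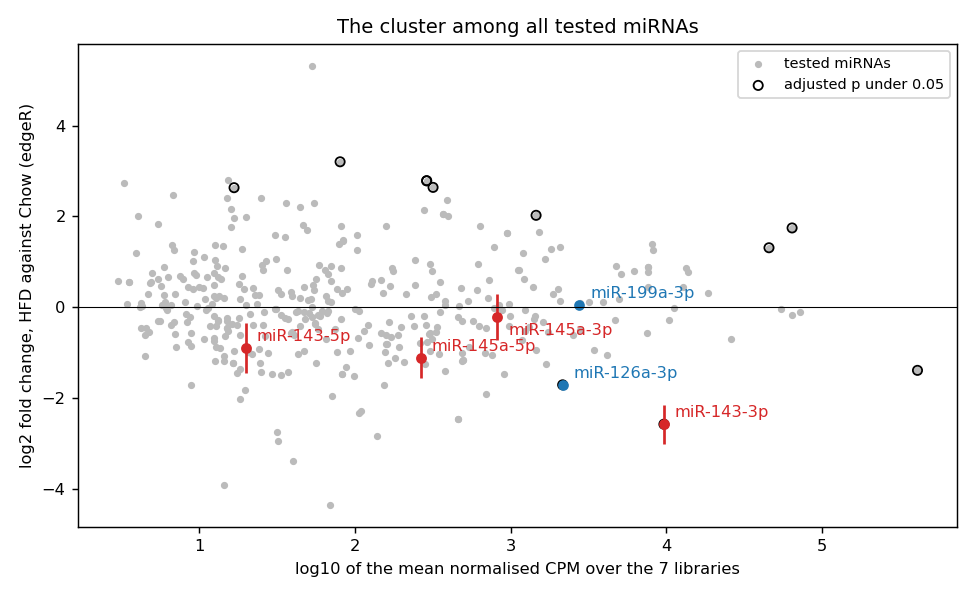
Each point is 1 of the 385 tested miRNAs, placed by the log10 of its mean normalised CPM and its edgeR log2 change of HFD against Chow; red points with SE bars are the arms of the cluster, blue points the yardsticks, and rings mark an adjusted p under 0.05. miR-143-3p lies at -2.58 and is ringed, and the other 3 arms lie between -1.12 and -0.22.

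Whether the arms differed from each other in their change with diet was tested on ratios of counts within a library, which do not depend on the scaling between libraries. For each of 5 ratios the diets were compared by exact permutation of the diet labels (two-sided, 35 assignments), which cannot give a p below 0.0286, with adjustment over the 5. None of the 5 passed the adjusted threshold of 0.05. The ratios to miR-126a-3p and to miR-199a-3p reached the smallest possible p, which the adjustment raised to 0.0714 (exact permutation). They could not have passed unless a further ratio had reached it too, so the number of libraries and ratios set this outcome for them.

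For the miR-143 hairpin, miR-143-3p outnumbered miR-143-5p by 278, 912 and 290 times in Chow 1, Chow 2 and Chow 4 and by at least 299 times in Chow 3, where the 0 was replaced by 3 counts. In HFD 1 to HFD 3 the factor was 110, 141 and 224. No HFD library reached the lowest Chow library. With a pseudocount of 0.5 the mean log2 ratio was 9.23 ± 1.32 over the 4 Chow libraries and 7.25 ± 0.52 over the 3 HFD libraries (mean ± SD), a difference of -1.99 (exact permutation p = 0.0857, adjusted p = 0.107). Among the 97 hairpins with both arms tested, the ratio of 3p to 5p did not overlap between the diets in 21 (21.6%), and was lower in HFD in 12 of these (12.4% of the 97). The size of the difference for miR-143 rests on the 0 in Chow 3: it was -2.59 with a pseudocount of 0.1, -1.71 with a pseudocount of 1, and -0.90 without Chow 2 and Chow 3.

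For the miR-145a hairpin, miR-145a-3p exceeded miR-145a-5p by 1.52, 1.29, 1.52 and 8.95 times in Chow 1 to Chow 4 and by 5.58, 3.72 and 4.88 times in HFD 1 to HFD 3. Chow 4 lay beyond the HFD libraries, and the other 3 Chow libraries lay below them. The mean log2 ratio of miR-145a-5p to miR-145a-3p was -1.18 ± 1.32 over the 4 Chow libraries and -2.22 ± 0.30 over the 3 HFD libraries (mean ± SD). The difference was -1.04 (exact permutation p = 0.229, adjusted p = 0.229). Without Chow 4 the difference was -1.70, and without Chow 2 and Chow 3 it was -0.34. Of the 97 hairpins, 30 had more 3p than 5p counts in all 7 libraries, miR-143 and miR-145a among them, and 36 had more 5p counts.

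Between the hairpins, miR-143-3p outnumbered miR-145a-5p by 20.2, 51.6, 57.8 and 56.8 times in Chow 1 to Chow 4 and by 10.9, 13.7 and 22.7 times in HFD 1 to HFD 3. Chow 1 lay within the HFD range. The mean log2 ratio was 5.43 ± 0.73 over the 4 Chow libraries and 3.91 ± 0.54 over the 3 HFD libraries (mean ± SD), a difference of -1.52 (exact permutation p = 0.0857, adjusted p = 0.107). The smaller change of miR-145a-5p was therefore not shown to differ from that of miR-143-3p.

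Against the endothelial yardstick, miR-143-3p had 4.05, 3.84, 8.34 and 4.50 counts per count of miR-126a-3p in Chow 1 to Chow 4 and 1.84, 2.39 and 3.82 in HFD 1 to HFD 3. The diets did not overlap, although HFD 3 and Chow 2 were nearly equal. The log2 ratio differed by -0.94 between the diets (exact permutation p = 0.0286, the smallest possible, adjusted p = 0.0714). Without Chow 2 and Chow 3 it differed by -0.74. miR-126a-3p itself was lower in HFD, at 3073 ± 1302 normalised CPM over the 4 Chow libraries and 939 ± 21.2 over the 3 HFD libraries (mean ± SD), a log2 change of -1.71 (edgeR, adjusted p = 0.0491).

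Against the fibroblast yardstick the ratios lay further apart. There were 3.11, 7.92, 5.17 and 7.22 counts of miR-143-3p per count of miR-199a-3p in Chow 1 to Chow 4 and 0.449, 1.01 and 1.55 in HFD 1 to HFD 3. The highest HFD library was below the lowest Chow library. The difference was -2.63 on the log2 scale (exact permutation p = 0.0286, the smallest possible, adjusted p = 0.0714). Without Chow 2 and Chow 3 the difference was -2.41. miR-199a-3p stood at 2739 ± 978 normalised CPM over the 4 Chow libraries and 2810 ± 996 over the 3 HFD libraries (mean ± SD), with a log2 change of 0.04 (edgeR, adjusted p = 0.971).

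**Figure D4:**
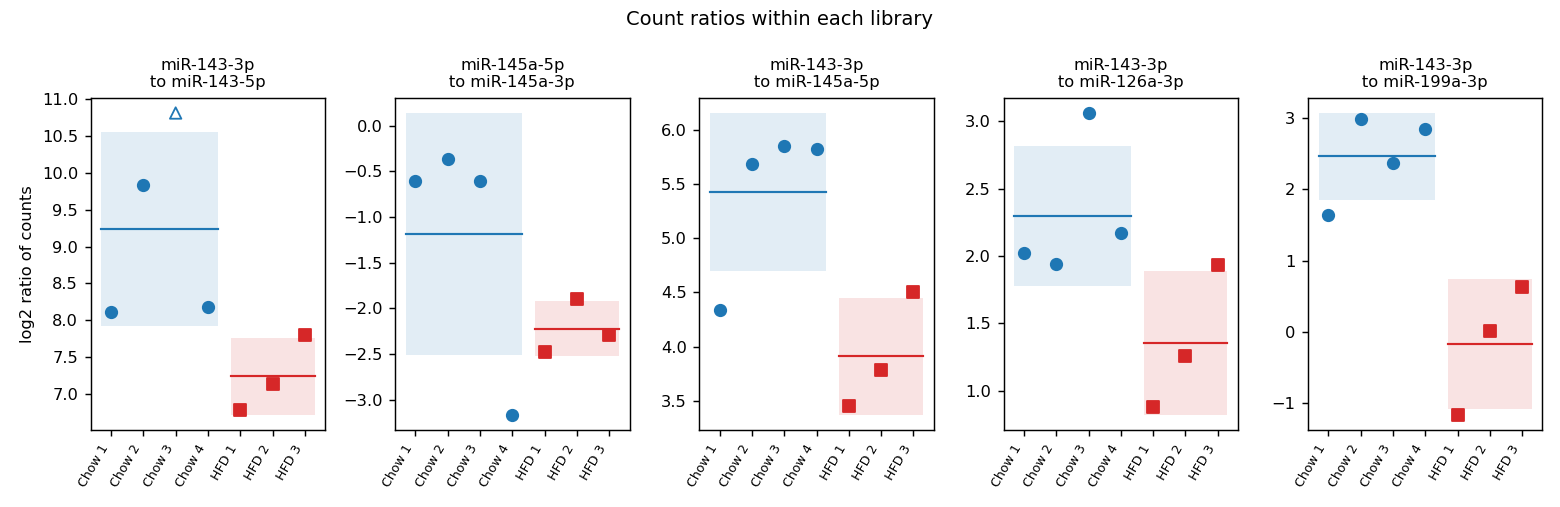
Log2 ratio of the counts of 2 miRNAs in each library (pseudocount 0.5), with circles for Chow and squares for HFD, lines for group means and bands of 1 SD; the open triangle is Chow 3, where miR-143-5p had 0 counts. The panels for miR-143-5p, for miR-126a-3p and for miR-199a-3p separate the diets, and in the ratio of miR-145a-5p to miR-145a-3p Chow 4 lies below the HFD libraries.

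The likeness of profiles was measured as the root mean square difference between log2 normalised CPM of 2 miRNAs over the 7 libraries, each centred on its own mean. All profiles share the same libraries and their depths, and the values are descriptive. miR-143-3p and miR-145a-5p differed by 0.94, against a median of 1.86 between miR-143-3p and the 381 tested miRNAs outside the cluster, of which 32 were closer to it. The arms of miR-145a differed by 1.01 and those of miR-143 by 2.43, the latter with the 0 in Chow 3. The 5 closest to miR-143-3p were miR-135a-2-3p (0.58), miR-126a-3p (0.64), miR-30a-3p (0.68), miR-3081-3p (0.68) and miR-122-5p (0.74), the last an abundant hepatocyte miRNA. Those closest to miR-145a-5p were miR-101b-3p (0.27), miR-148a-3p (0.37), miR-148b-3p (0.39), miR-148a-5p (0.39) and miR-669c-5p (0.40). Without Chow 2 and Chow 3, 1 of the first 5 and 0 of the second 5 were still among the closest 5. In Chow 3 miR-3081-3p stood at 44.1 normalised CPM, under the 66.1 that 3 counts give there, and miR-135a-2-3p at 88.1.

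Of 15 miRNAs outside the cluster with a known role in the smooth muscle phenotype, all tested, 1 rose (miR-21a-5p) and 0 fell in edgeR, and their median log2 fold change was 0.77, against -0.02 over all 385 tested miRNAs, of which 2.08% were called higher. miR-21a-5p, which is raised in injured vessel walls and also in leukocytes, went from 31964 ± 16284 normalised CPM over the 4 Chow libraries to 107307 ± 5320 over the 3 HFD libraries (mean ± SD), with a log2 change of 1.75 (edgeR, adjusted p = 0.0328). miR-221-3p and miR-222-3p, which favour proliferation of smooth muscle cells, had changes of 1.33 and 0.96 on the log2 scale without passing (edgeR, adjusted p = 0.0642 and 0.194), and miR-146a-5p one of 1.26 (edgeR, adjusted p = 0.0642). Of the 15, 12 had a log2 change above 0, as did 190 of all 385 tested miRNAs. The 3 below 0 were miR-204-5p (-0.42), miR-31-5p (-0.39) and miR-10a-5p (-0.03). The list was not split by the state that each miRNA favours, and 6 of the 15 stand in another list as well. The list, with the abundant miR-21a-5p included, took 6.14% to 15.2% of all counts on chow and 22.1% to 26.7% on the high-fat diet. Without Chow 2 and Chow 3, 0 of the 15 passed, and the median was 0.42, against -0.13 over all miRNAs then tested.

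Among 10 miRNAs of fibroblasts and stroma 0 rose and 0 fell, with a median log2 change of -0.14 (-0.22 without Chow 2 and Chow 3) and values of -1.06 for miR-100-5p (edgeR, adjusted p = 0.113), -1.41 for miR-199b-5p (edgeR, adjusted p = 0.347), -0.61 for miR-152-3p and 0.40 for miR-214-3p. Their share of the counts was 10.7% to 19.8% in Chow and 14.5% to 18.04% in HFD. Of the 5 endothelial miRNAs 4 were tested and 1 fell, miR-126a-3p, where 0.779% of all tested miRNAs were called lower, and the median was -0.16 (-0.32 without Chow 2 and Chow 3). The other tested members had log2 changes on both sides of 0, at 0.79 for miR-501-3p (edgeR, adjusted p = 0.507), -0.36 for miR-126a-5p, the partner arm of miR-126a-3p, and 0.04 for miR-139-5p. The endothelial share was 0.207% to 0.706% in Chow and 0.171% to 0.189% in HFD. It rests largely on miR-126a-3p, with mean normalised CPM of 3073 in Chow and 939 in HFD. The means were 373 and 391 for miR-139-5p and 127 and 238 for miR-501-3p.

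The list of 18 miRNAs tied to fat cell differentiation, a process miR-143 is reported to promote, held 51.3% to 67.7% of the counts in Chow and 42.6% to 48.6% in HFD. In it 1 rose, miR-21a-5p, and 1 fell, miR-148a-3p (log2 fold change -1.39, edgeR, adjusted p = 0.0328), with a median of 0.11. Of all tested miRNAs 2.08% were called higher and 0.779% lower. miR-148a-3p averaged 558623 ± 195965 normalised CPM over the 4 Chow libraries and 212924 ± 26645 over the 3 HFD libraries (mean ± SD). The share of the list therefore rests largely on this miRNA, and the shares of other miRNAs also depend on it. miR-26b-5p and miR-27b-3p had changes of 1.28 and 0.78 on the log2 scale without passing (edgeR, adjusted p = 0.141 and 0.172).

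Of the remaining lists, for other cells that could share the vesicle preparation, only that of leukocytes had members past the threshold. The part of these cells in the levels of the cluster was not tested. Of 10 leukocyte miRNAs 4 rose (the arms miR-142a-3p and miR-142a-5p, miR-342-3p and miR-223-3p, with log2 changes of 2.79, 2.03, 2.64 and 3.20) and 0 fell, where 2.08% of all tested miRNAs were called higher. Of the 10, 9 had a log2 change above 0, and 1, miR-147-3p, had one of -1.44 (edgeR, adjusted p = 0.136). The median was 1.81 (1.65 without Chow 2 and Chow 3), and the list held 0.672% to 1.35% of the counts in Chow against 1.79% to 3.34% in HFD. In Chow 3 miR-223-3p had no counts, and miR-142a-3p and miR-342-3p stood at 22.0 normalised CPM, under the 66.1 that 3 counts give there. None of the tested miRNAs of red blood cells (5), striated muscle (6 of 7), epithelium (7) or testis and epididymis (8) passed. Their median log2 fold changes were -0.43, 0.61, -0.29 and 2.25, in that order, and -0.27, 0.15, -0.77 and 1.85 without Chow 2 and Chow 3. In the red blood cell list the arms miR-486a-5p and miR-486a-3p had log2 changes of -1.16 and -1.17, and miR-144-5p and miR-144-3p had 1.78 and 1.10. In striated muscle the values were 1.63 for miR-1a-3p, 1.39 for miR-206-3p, 0.63 for miR-133b-3p and 0.58 for miR-133a-3p. Epithelial miR-205-5p, miR-200a-3p, miR-200c-3p and miR-200b-3p had -0.57, -0.56, -0.49 and -0.28. In testis and epididymis miR-883a-3p, miR-470-5p, miR-741-3p and miR-743a-3p had 2.80, 2.42, 2.29 and 1.98. Striated muscle miRNAs held 0.0155% to 0.153% of the counts in Chow and 0.0199% to 0.416% in HFD. Red blood cell miRNAs held 0.180% to 0.391% and 0.0826% to 0.272%, those of epithelium 1.37% to 1.94% and 1.43% to 1.78%, and those of testis and epididymis 0.00410% to 0.0130% and 0.0205% to 0.0970%. No list had a member at 0 in all 7 libraries, and without Chow 2 and Chow 3 no member of any list passed. Nor did any list member pass with Chow 4, HFD 2 or HFD 3 left out.

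**Figure D5:**
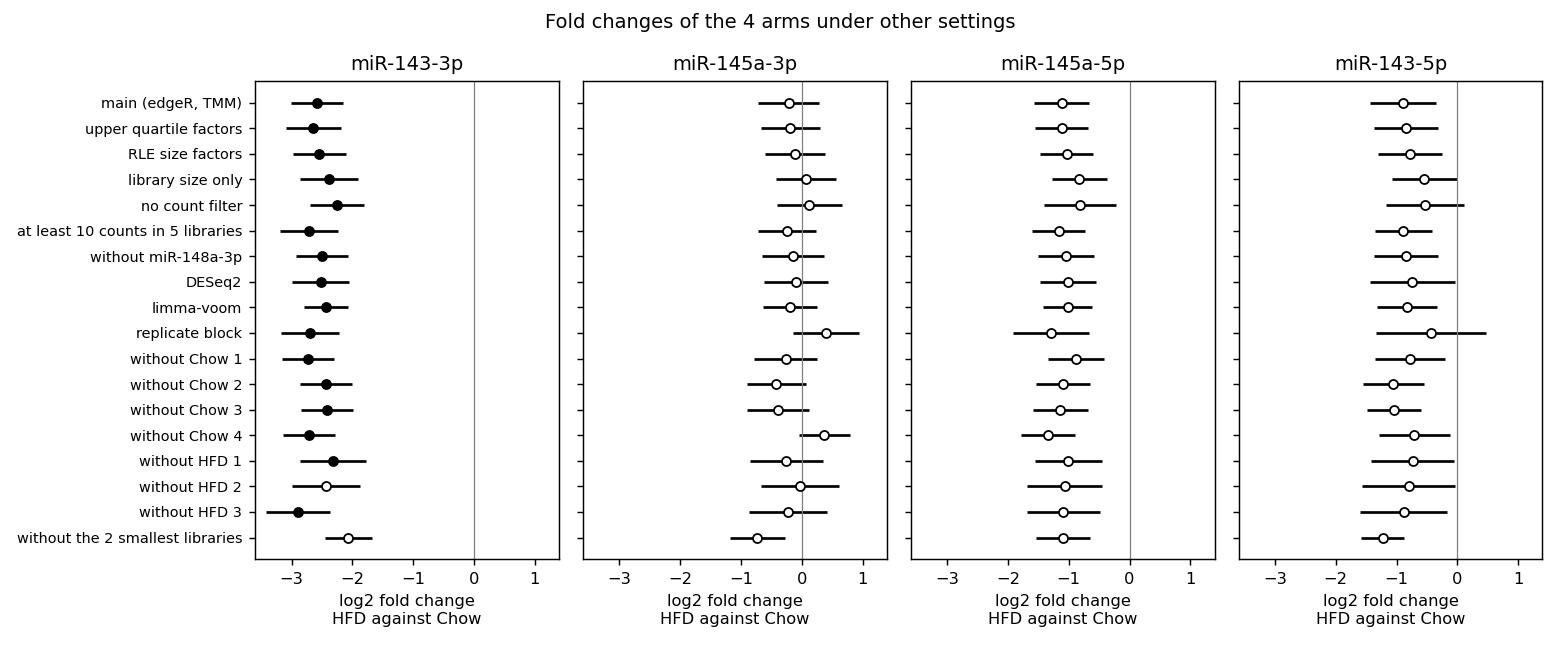
Log2 fold change of HFD against Chow with its SE for each arm under the main test and 17 other settings; filled points have an adjusted p under 0.05. miR-143-3p lies between -2.90 and -2.07 and is open without HFD 2 and without the 2 smallest libraries (Chow 2 and Chow 3), no setting gave a call for another arm, and miR-145a-3p crosses 0.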

How the data were processed

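Small RNA libraries of adipose vesicles were made by a sequencing company with Illumina chemistry, per the labels' protocols. The authors deposited raw read counts per mature miRNA, per the file headers. Bowtie is named in the submitters' processing notes, and its version is not stated there. For the counting program, build and annotation the answer is the same: not given in the sources used here. Values come from the combined table, and the separate tables gave the same values once blanks were read as 0.

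The whole table was tested in R 4.3.3 with edgeR 4.0.16 (quasi-likelihood F test, TMM scaling, filterByExpr, diet as the only term, Benjamini-Hochberg adjustment over 385 miRNAs, threshold 0.05), and SE was derived from the F statistic. Normalised CPM divide each count by the TMM-scaled total. Ratios used a pseudocount of 0.5 and profiles a prior count of 2. Alternatives used DESeq2 1.42.0 and limma 3.58.1, other scalings and filters, omitted libraries, and replicate number as a block. The edgeR and permutation tests were checked on simulated data.

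The members, lists and alternatives were chosen with earlier results of these data known. Named miRNAs are the arms, the yardsticks, the 5 closest profiles to miR-143-3p and to miR-145a-5p, and, of each of 9 lists, members past the threshold and up to 4 with the smallest p. Intervals (Clopper-Pearson) and floors of 3 counts cover counting error only. Sequences are from RefSeq.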

Additional observations from a re-analysis of the deposited data

Results flagged for a closer look

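In the 4 Chow libraries, 9 quantities (the normalised levels of the 4 arms and the 5 ratios) were screened with Dixon's 95% criterion, which flags about 1 in 20 groups by chance, and 2 had a library far from the others. The log2 ratio of miR-145a-5p to miR-145a-3p was -3.16 in Chow 4, where the other 3 libraries lay between -0.61 and -0.37 (gap of 0.914 of the range). The log2 ratio of miR-143-3p to miR-145a-5p was 4.34 in Chow 1, where the others lay between 5.69 and 5.85 (gap of 0.892 of the range).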

How the results depend on the processing

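miR-143-3p kept its direction under all 18 alternatives and its call under 16, losing the call without HFD 2 (log2 change -2.43) and without Chow 2 and Chow 3 (-2.07). Among the 18 are the separate tables, which hold the same counts and could not give another result. Without Chow 2 alone the call of miR-143-3p held narrowly (edgeR, adjusted p = 0.0498). Over the libraries left out in turn its log2 fold change ran from -2.90 to -2.32 (edgeR, adjusted p from 0.00371 to 0.160). miR-145a-5p and miR-143-5p kept their direction and had no call under any of the 18 alternatives, with log2 changes from -1.34 to -0.82 and from -1.23 to -0.44 (from -1.34 to -0.88 and from -1.05 to -0.71 with libraries left out in turn). miR-145a-3p (-0.42 to 0.37 with libraries left out in turn) turned positive with library size alone (0.072), without a count filter (0.12), under the replicate block (0.40) and without Chow 4 (0.37), was -0.73 without Chow 2 and Chow 3, and the cause was not tested. The number of miRNAs past the threshold, 11, was 18 with RLE factors (14 higher, 4 lower), 39 with library size alone (36 higher, 3 lower), 62 without a filter (45 higher, 17 lower), 49 in DESeq2 (32 higher, 17 lower), 23 under the replicate block and 0 to 32 with libraries left out in turn. It was 0 in edgeR without HFD 2 (57 at an unadjusted p under 0.05) and 0 without Chow 2 and Chow 3 (95 at an unadjusted p under 0.05). Library size alone moved the median of all tested miRNAs by 0.33 and RLE by 0.11, and relative to that median miR-143-3p stood at -2.69 and -2.63, against -2.56 in the main test. Over all settings this relative value ran from -2.90 under the replicate block to -1.82 in DESeq2, where the median over 1042 entries moved by -0.68. Without Chow 2 and Chow 3 it was -1.93.

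No label pairs the libraries of equal number. The deviations of Chow and HFD libraries 1, 2 and 3 correlated at 0.07, -0.16 and 0.04 across miRNAs, and not every library correlated best with its own number. Deviations from the means of so few libraries, with Chow 2 and Chow 3 shallow, cannot decide whether libraries were paired. Under the replicate block miR-143-3p had a log2 fold change of -2.69. The ratios kept their direction and none had a call in any setting, but a call was not possible with a library left out or in the block. The smallest possible permutation p was 0.0667 with an HFD library left out and 0.25 in the block. With a Chow library left out no permutation p was below 0.1. The differences in log2 ratio with libraries left out in turn ranged from -2.36 to -1.46 (miR-143-3p to miR-143-5p), -1.70 to -0.76 (miR-145a-5p to miR-145a-3p), -1.88 to -1.29 (miR-143-3p to miR-145a-5p), -1.23 to -0.69 (to miR-126a-3p) and -3.03 to -2.14 (to miR-199a-3p). The alternative that adds miR-145b to miR-145a-5p was not run, since no entry of that name was analysed here. Depth limits miR-143-5p most, with 4 counts in Chow 2 and 0 in Chow 3.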
